A study of Drosophila melanogaster with 6 samples.

Results

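The nuclear genes for the subunits of oxidative phosphorylation were taken from a comparison of dorsal with ventral optic lobe neuroepithelium in larvae of Drosophila melanogaster. Members were all genes whose FlyBase symbol begins with ND-, COX, UQCR- or ATPsyn, in that case, with genes of the mitochondrial genome left out. The rule used names alone and no measured value. It found 80 genes among the 17559 counted, and 59 of these encode the ordinary (canonical) subunits: 34 of complex I, 6 of complex III, 8 of complex IV and 11 of complex V. The other 21 carry the name of a subunit followed by L, L1 or L2 and were set apart as paralogs.

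Oxidative phosphorylation takes place in the inner mitochondrial membrane. Complex I (NADH dehydrogenase) passes electrons from NADH to ubiquinone, complex III (the cytochrome bc1 complex) passes them on to cytochrome c, and complex IV (cytochrome c oxidase) passes them to oxygen. All of these pump protons, and complex V (ATP synthase) lets the protons flow back while it makes ATP. Most subunits are encoded in the nucleus and a few in the mitochondrial genome. In Drosophila several nuclear subunits have a duplicate gene used mainly in the testis.

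The tissue is the outer proliferation centre, an epithelium on the optic lobe surface whose cells divide and later turn into the neuroblasts of the medulla. Both groups, 3 dorsal and 3 ventral libraries, came from brains of larvae late in the second instar, labelled female and raised at 25 °C. GFP-labelled cells were drawn from each region by hand with a glass micropipette, in a collection of 1 h, and cells from 3 to 4 brains were pooled per sample. Polyadenylated RNA was amplified with a SMART-Seq kit for low input and made into libraries with Nextera XT. The labels name neither the driver of the GFP nor any other allele, and they do not say whether samples of a group came from separate crosses or days, so the p-values rest on the spread between pooled samples that may be technical repeats.

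Libraries held 21114019 to 27815885 counted reads. All 11 listed neuroepithelial markers were measured above the filter on low counts, with hth, a homeodomain gene of the outer proliferation centre, at 729.1 ± 96.6 CPM dorsally and 765.4 ± 284.3 CPM ventrally (SD, n = 3 each; CPM is reads scaled to a common library total). The 11 genes summed to 1523 to 2103 CPM dorsally and 1636 to 2111 CPM ventrally. Their log2 fold changes, dorsal minus ventral, ran from -1.44 to 0.48, with 7 above 0 and 4 below. Marker RNA of neurons, neuroblasts and glia was present too. The 7 listed neuronal genes summed to 385.9 to 647.5 CPM dorsally and 442.7 to 748.7 CPM ventrally. For the 7 neuroblast genes the sums were 946.5 to 1840 CPM dorsally and 1290 to 1917 CPM ventrally. They exceeded the neuroepithelial sums in dorsal replicate 2 (1840 against 1523 CPM) and ventral replicate 1 (1917 against 1636 CPM), and not in the other libraries. For the 6 glial genes the sums were 1171 to 1214 CPM dorsally and 983.4 to 1353 CPM ventrally. The haemocyte list summed to at most 1.25 CPM in any library. Ventral replicates 1 and 2 stood apart, since over all 8707 genes tested the lowest value fell in ventral replicate 1 for 27.0% and in ventral replicate 2 for 26.3%. The roX2 RNA, part of the male dosage compensation complex, had 16000, 7580 and 0 reads in dorsal replicates 1 to 3 and 6888, 62 and 5680 reads in ventral replicates 1 to 3, although all samples are labelled female. The 37 genes of the mitochondrial genome were listed at 0 in each library, so the subunits encoded there were not analysed here.

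Dorsal and ventral neuroepithelium gave nuclear subunit mRNA similar shares of their reads. The canonical subunit genes took 3.5%, 3.13% and 3.25% of all counted reads in dorsal replicates 1 to 3, and 3.36%, 3.21% and 3.57% in ventral replicates 1 to 3. The means were 3.29 ± 0.192% in dorsal and 3.38 ± 0.184% in ventral libraries (SD, n = 3 each), and the groups overlapped. In bulk samples, fewer cells of a type and less RNA per cell cannot be told apart, and a share of reads says nothing on the absolute amount per cell.

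The sets of the complexes hold only the genes that fit the naming rule. Subunit genes with other names, such as levy and cype of complex IV and blw and sun of complex V, were left out. Within these sets, complex V took more reads than the other 3 complexes together in each library. Its share was 1.89%, 1.6% and 1.74% in dorsal replicates 1 to 3 and 1.85%, 1.66% and 1.87% in ventral replicates 1 to 3. The c-ring gene ATPsynC alone accounted for 0.807%, 0.648% and 0.781% of dorsal and 0.768%, 0.738% and 0.822% of ventral reads. Complex I, with 34 genes, took 0.682 ± 0.0241% in dorsal and 0.683 ± 0.0507% in ventral libraries. Complex IV took 0.612 ± 0.043% in dorsal and 0.634 ± 0.0329% in ventral libraries, and complex III took 0.256 ± 0.00339% in dorsal and 0.271 ± 0.0244% in ventral libraries (SD, n = 3 each). In none of the 4 complexes did the dorsal and ventral libraries separate.

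**Figure D1:**
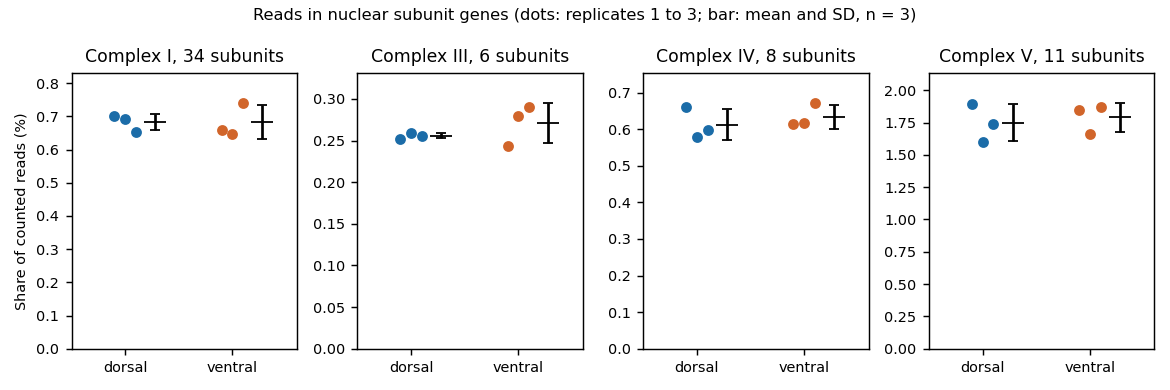
Share of counted reads (%, axes from 0, with a scale of its own for each complex) in the canonical subunit genes of complexes I, III, IV and V, for dorsal (left) and ventral (right) libraries. Dots are replicates 1 to 3 and bars show the mean and SD. Dorsal and ventral dots overlap in each complex.

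Tested across all 8707 genes with edgeR, 0 of the 62 members that passed the filter on low counts (57 canonical and 5 paralogs) were called at an adjusted p under 0.05, in either direction. The same test called 8 genes, or 0.0919% of those tested, 0.0230% higher in dorsal and 0.0689% higher in ventral, so a count of 0 among 62 is close to the background. At an unadjusted p under 0.05, 1 member passed (the paralog COX4L), against a background of 3.20%. DESeq2 called 0 members against a background of 0.495% (0.144% higher in dorsal and 0.350% higher in ventral), with 1 member (again COX4L) at an unadjusted p under 0.05 against 3.31%. With limma-voom 0 members were called against a background of 0.126% (0.0230% higher in dorsal and 0.103% higher in ventral), and 1 member, the complex IV gene COX5B with a lower dorsal level, passed an unadjusted p of 0.05 against 5.51%. COX4L did not pass it with limma-voom. Dorsal and ventral values separated for 0 of the 57 canonical genes and for 1 of the 5 tested paralogs, COX4L, with dorsal higher. Over all genes tested they separated with dorsal higher for 4.09% and with ventral higher for 3.18%.

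The differences were small as well as uncalled. The median log2 fold change, dorsal minus ventral, was -0.03 over the 57 canonical genes and 0.00 over all genes tested. The median size of the log2 fold change, regardless of sign, was 0.054 for canonical genes and 0.176 for all genes tested, and the median SE was 0.166 for canonical genes and 0.272 for all. Apart from ND-B8, which had almost no reads, the canonical log2 fold changes ran from -0.22 for ND-MLRQ to 0.13 for ND-B14.7. The 95% interval of the difference lay inside a 1.5-fold difference for 51 of these 56 genes (91.1%, against 24.1% of all genes tested) and inside a 2-fold difference for 56 of 56 (61.8% of all genes tested), but inside 1.2-fold for 0 of 56. The canonical genes were also more abundant, with a median level of 295.4 CPM against 32.44 CPM over all genes tested. The part of that abundance in their narrower intervals was not tested.

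More canonical genes leaned towards ventral than towards dorsal, without any of them passing the test. The log2 fold change was above 0 for 20 of 57 (35.1%), where 50.3% of all genes tested were above 0. By complex it was above 0 for 15 of 33 genes of complex I, 2 of 5 of complex III, 1 of 8 of complex IV and 2 of 11 of complex V, with medians of -0.02, -0.11, -0.08 and -0.05 in that order. The count moved with single libraries: 30 of 57 were above 0 without ventral replicate 3 and 10 of 57 without dorsal replicate 1 and likewise without ventral replicate 2. Leaving out ventral replicates 1 and 2 together left 4 of 57 above 0. The count also moved with the method: limma-voom gave 7 of 57, DESeq2 19, upper-quartile scaling 22 and the replicate number as a block 24. Scaled by library size alone, 28 of 57 were above 0, with a canonical median of -0.003 and a median of 0.034 over all genes tested. The genes are transcribed in the same libraries and are not independent of each other.

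**Figure D2:**
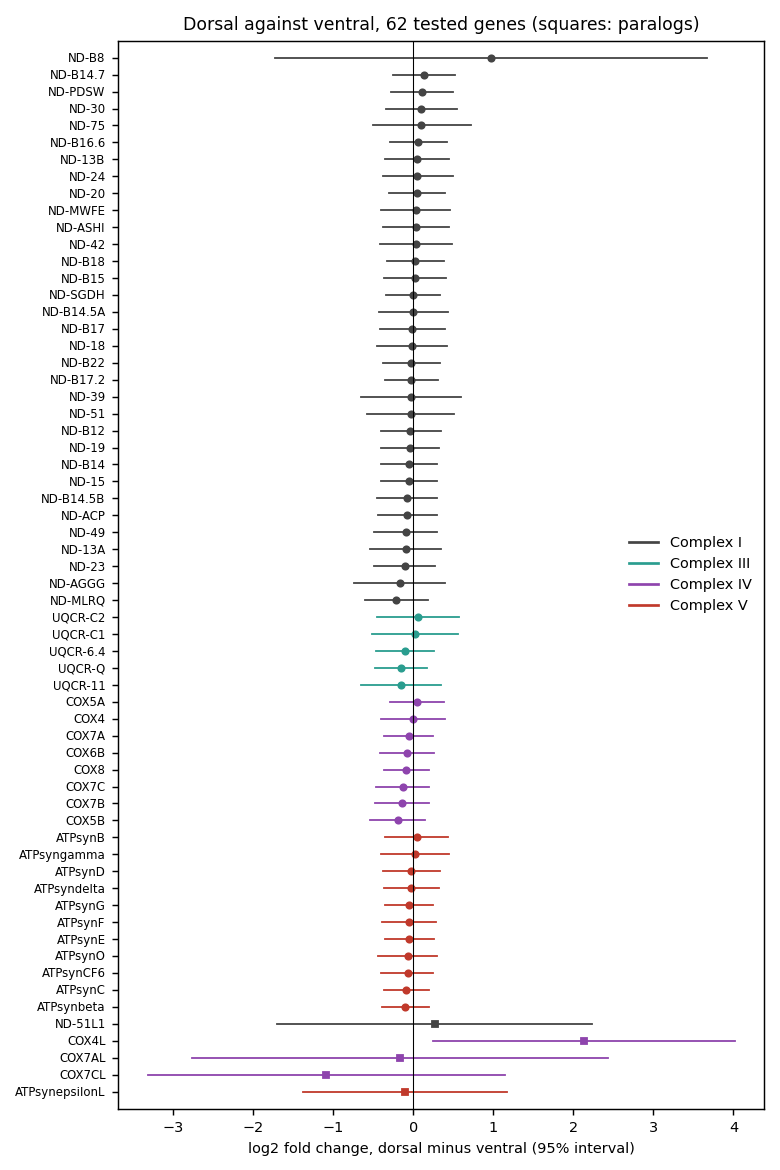
Fold change of each of the 62 tested genes on the log2 scale, dorsal minus ventral, with 95% intervals from the edgeR fit. Circles are canonical subunits by complex and squares are paralogs. Canonical genes other than ND-B8 lie between -0.22 and 0.13, and the interval of COX4L, from 0.24 to 4.02, is the one that leaves out 0.

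Levels of different genes were compared per length, as RPKM (CPM divided by the kilobases of merged exon). The median over genes of the mean level was 190.9 RPKM for complex I, 322.7 RPKM for complex III, 889.1 RPKM for complex IV and 830.7 RPKM for complex V. Merged exons can be much longer than the transcript in use, as for ATPsyndelta (3817 bases of merged exon, 471 of them coding in its longest transcript) and UQCR-11 (1613 and 255), so these levels can understate such genes.

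Complex I holds an NADH-oxidising core, a ubiquinone-reducing core and many accessory subunits. The NADH-oxidising core genes ND-75, ND-51 and ND-24, whose proteins carry iron-sulphur clusters and the flavin, all had levels below the complex I median of 190.9 RPKM. ND-75 (FBgn0017566, X, 8248651 to 8251687, minus strand) stood at 57.2, 37.6 and 33.1 CPM in dorsal replicates 1 to 3 and 47.2, 28.4 and 43.3 CPM in ventral replicates 1 to 3. The highest dorsal value exceeded all ventral values but the rest interleaved. Its mean of 15.61 RPKM was the lowest of the canonical genes with clear expression, and its log2 fold change was 0.10 ± 0.28 (SE).

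The 4 ubiquinone-reducing core genes ND-49, ND-30, ND-23 and ND-20 lay between 136.6 and 228.3 RPKM and had log2 fold changes from -0.11 to 0.10. Accessory genes spread more widely. ND-MLRQ (FBgn0052230, 3L, 23339326 to 23345936, plus strand), named after a mammalian subunit first assigned to complex I and later found with complex IV, was the highest of the complex I genes at 1094 RPKM. It stood at 498.1, 569.6 and 565.8 CPM in dorsal replicates 1 to 3 and 499.1, 753.0 and 647.3 CPM in ventral replicates 1 to 3. The dorsal values fell within or just under the ventral range, with ventral replicate 1 as low as the lowest dorsal library. Its log2 fold change of -0.22 ± 0.18 (SE) came with an adjusted p of 1.0 (edgeR).

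ND-ACP (FBgn0011361, 3L, 1329949 to 1331631, plus strand), the acyl carrier protein of complex I that also serves mitochondrial fatty acid synthesis, came next at 689.7 RPKM. It measured 598.7, 551.6 and 546.5 CPM in dorsal replicates 1 to 3 and 484.6, 654.6 and 648.3 CPM in ventral replicates 1 to 3, so ventral libraries took both the lowest and the highest place. ND-B14.7, a membrane-arm subunit, had the most dorsal-leaning value of the well-expressed canonical genes, with 143.7 ± 12.2 CPM dorsally and 131.4 ± 18.3 CPM ventrally (SD, n = 3 each). That log2 fold change of 0.13 ± 0.18 (SE) was smaller than its error.

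ND-B8 (FBgn0040705, 2L, 4454626 to 4455207, plus strand), an accessory subunit, was nearly silent in these counts with 14, 27 and 1 reads in dorsal replicates 1 to 3 and 2, 6 and 10 reads in ventral replicates 1 to 3. Its log2 fold change of 0.97 ± 1.21 (SE) carried no information on direction. It shares 71 of its 460 exon bases with the opposite-strand gene Gs1l. ND-MNLL (FBgn0029971, X, 7893053 to 7893798, minus strand), another accessory subunit, was listed at 0 in each library. All 720 of its exon bases are shared, on the same strand, with CG45089, which was also listed at 0 in each library.

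Complex III is built around cytochrome b, cytochrome c1 and the Rieske protein, with the core proteins UQCR-C1 and UQCR-C2 facing the matrix. The core protein genes were the lower ones per length, at 204.6 RPKM for UQCR-C1 and 87.66 RPKM for UQCR-C2. UQCR-Q, a small subunit named for binding ubiquinone, was the highest at 797.9 RPKM. It measured 809.7, 667.6 and 731.9 CPM in dorsal replicates 1 to 3 and 784.1, 791.0 and 883.6 CPM in ventral replicates 1 to 3. The 2 lowest libraries were dorsal, dorsal replicate 1 lay within the ventral range, and the log2 fold change of -0.15 ± 0.15 (SE) had an adjusted p of 1.0 (edgeR).

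UQCR-11, another small subunit, came to 739.3 RPKM, and ventral libraries held both its lowest and its highest level. It measured 950.9, 1250 and 1184 CPM in dorsal replicates 1 to 3 and 849.2, 1598 and 1322 CPM in ventral replicates 1 to 3. UQCR-14 (FBgn0030733, X, 16286288 to 16286988, plus strand), which encodes a small subunit, was listed at 0 in each library. All 523 of its exon bases lie inside exons of the opposite-strand gene CG32576, which had 2461, 3163 and 2786 reads in dorsal replicates 1 to 3 and 2177, 2152 and 2179 reads in ventral replicates 1 to 3. Exon overlap with another gene occurred for 33 of the 80 members, on the opposite strand for 28, and without a stated strand setting reads from such partners cannot be told apart. A 0 listed for a gene wholly inside the exons of another, such as UQCR-14, thus cannot be read as absence of its RNA.

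Complex IV reduces oxygen in subunits encoded by the mitochondrial genome, and its nuclear subunits surround that core. COX8 (FBgn0263911, 3L, 21538859 to 21539447, minus strand), a small membrane-spanning subunit, had the highest level at 2823 RPKM and one of the steadiest. It measured 1433, 1321 and 1460 CPM in dorsal replicates 1 to 3 and 1419, 1517 and 1539 CPM in ventral replicates 1 to 3. COX7B followed at 1972 RPKM, with 781.4 ± 85.5 CPM dorsally and 863.3 ± 90.1 CPM ventrally (SD, n = 3 each).

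COX5B, the zinc-binding subunit on the matrix side, had the smallest p of complex IV. It measured 721.7, 595.8 and 614.6 CPM in dorsal replicates 1 to 3 and 655.5, 761.2 and 794.0 CPM in ventral replicates 1 to 3. Dorsal replicate 1 stood above ventral replicate 1, so the groups overlapped, and the log2 fold change of -0.19 ± 0.15 (SE) had an adjusted p of 1.0 (edgeR). COX4, a regulatory subunit that binds the mitochondrially encoded core, was the lowest of the complex at 370.1 RPKM, with 454.6 ± 51.7 CPM dorsally and 456.5 ± 78.1 CPM ventrally (SD, n = 3 each).

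Complex V joins a catalytic F1 head to a membrane ring of c subunits through central and peripheral stalks. ATPsynC (FBgn0039830, 3R, 31216145 to 31219630, minus strand), the proton-carrying ring subunit present in several copies per enzyme, had the highest level of all members at 4072 RPKM. It measured 7964, 6382 and 7764 CPM in dorsal replicates 1 to 3 and 7639, 7646 and 8247 CPM in ventral replicates 1 to 3. Dorsal replicate 2 was the low library and the other 5 lay close together.

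ATPsynG, a membrane subunit at the interface between enzyme dimers, came second in complex V at 1492 RPKM, with 1156 ± 35.1 CPM dorsally and 1199 ± 102.2 CPM ventrally (SD, n = 3 each). ATPsynbeta (FBgn0010217, chromosome 4, 1031484 to 1034917, plus strand), the catalytic F1 subunit, measured 3318, 2960 and 3280 CPM in dorsal replicates 1 to 3 and 3764, 3121 and 3333 CPM in ventral replicates 1 to 3. Its log2 fold change of -0.10 ± 0.13 (SE) had the smallest p of complex V, with an adjusted p of 1.0 (edgeR). ATPsyndelta, a central stalk subunit, was lowest per length at 185.7 RPKM, on merged exons that share 1358 bases with an opposite-strand gene. It stood at 702.1 ± 99.7 CPM dorsally and 715.3 ± 37.3 CPM ventrally (SD, n = 3 each).

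**Figure D3:**
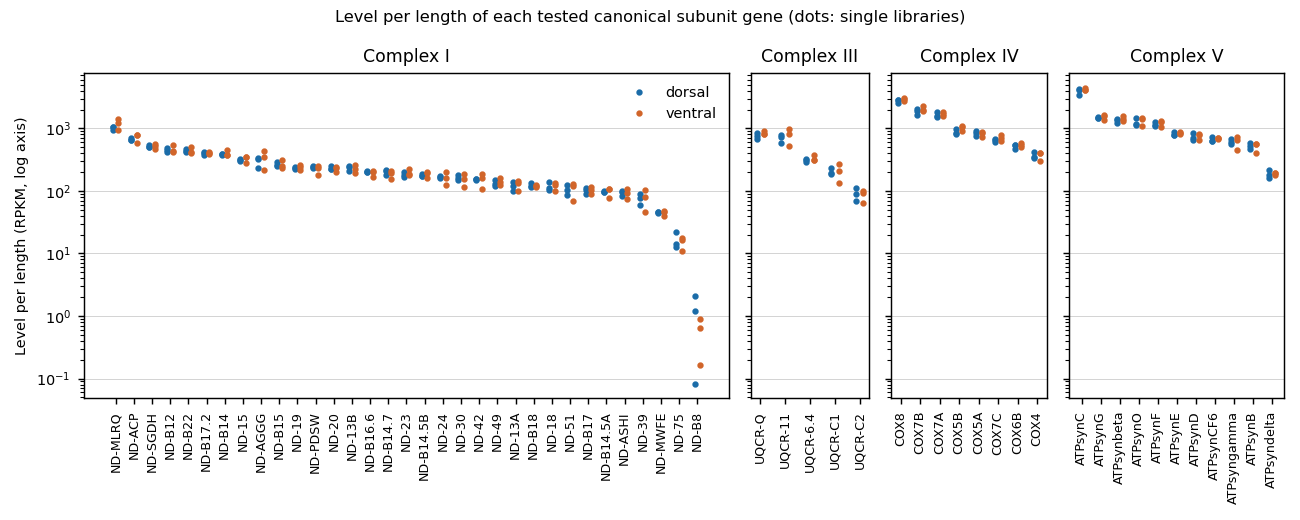
Level per length (RPKM, log axis) of the 57 tested canonical genes by complex, ordered by mean level, with 1 dot per library and dorsal dots left of ventral dots. Apart from ND-B8 the genes span 15.61 to 4072 RPKM, and dorsal and ventral dots overlap for each gene.

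The spread over single libraries was wider than the difference between group means, as it was over all genes tested (0.329 against 0.176). Means of 3 libraries vary less than single libraries, so this order says little about the members. Without ND-B8, the canonical genes had a median SD over the 6 libraries of 0.15 on the log2 scale, against 0.329 for all genes tested and against their own median difference between groups of 0.054. Ventral replicate 3 held the highest value for 20 of the 57 genes, dorsal replicate 1 for 14, ventral replicate 2 for 12 and ventral replicate 1 for 10. Over all genes tested these libraries, in that order, were highest for 10.3%, 15.2%, 23.7% and 24.5%. The lowest value fell in ventral replicate 2 for 23 genes and in ventral replicate 1 for 14, against 26.3% and 27.0% of all genes tested. The steadiest were ND-B17.2, an accessory subunit, and ATPsynE, a membrane subunit, whose highest library exceeded the lowest 1.13-fold and 1.11-fold.

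The most variable well-expressed member was ND-39, an accessory subunit of the complex I matrix arm. It measured 144.0, 123.5 and 96.7 CPM in dorsal replicates 1 to 3 and 167.1, 74.5 and 129.9 CPM in ventral replicates 1 to 3. Ventral replicate 1 was the highest and ventral replicate 2 the lowest, a 2.24-fold span within the ventral group. UQCR-C1 showed the same order at the extremes, with 383.4, 306.4 and 319.2 CPM in dorsal and 439.1, 218.0 and 337.6 CPM in ventral replicates 1 to 3.

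These deviations went with the length of the coding sequence. For each library, each gene's log2 deviation from its mean over the 6 libraries was set against its longest coding length, over the 56 well-expressed canonical genes. Spearman's rho was 0.57, 0.22 and -0.43 in dorsal replicates 1 to 3 and 0.72, -0.74 and -0.30 in ventral replicates 1 to 3. The points of a library share its preparation, so these are descriptions. Over 7958 genes with a coding length, rho was 0.23, -0.28 and -0.03 in dorsal and 0.25, -0.10 and -0.17 in ventral replicates 1 to 3, with the opposite sign in dorsal replicate 2 and the same sign but a smaller size in the other 5 libraries.

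The 8 canonical genes with at least 1000 coding bases were ND-39, ND-42, ND-49, ND-51, ND-75, UQCR-C1, UQCR-C2 and ATPsynbeta. Their median deviation was 0.24, -0.04 and -0.22 in dorsal replicates 1 to 3 and 0.26, -0.48 and 0.08 in ventral replicates 1 to 3. Ventral replicate 1 was highest for 6 of the 8 and ventral replicate 2 lowest for 6 of the 8, against 24.5% and 26.3% of all genes tested. All 5371 tested genes of that length had medians of 0.12 in ventral replicate 1 and -0.10 in ventral replicate 2. Each group thus held a library in which these genes ran high and one in which they ran low, and the log2 fold changes of the 8 genes were from -0.10 to 0.10. RNA integrity and fragment coverage were not given in the sources used here, and their part in this pattern was not tested.

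**Figure D4:**
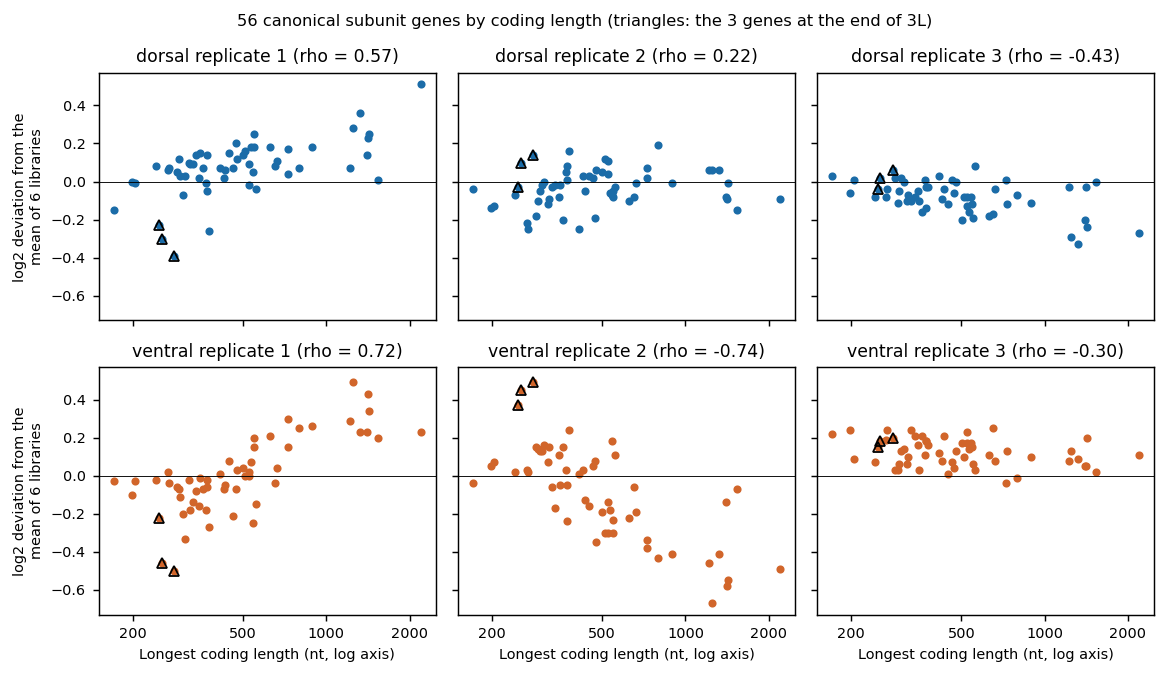
Log2 deviation of each canonical gene from its mean over the 6 libraries, by longest coding length (nucleotides, log axis), with a panel per library and dorsal libraries in the top row. Long genes lie high in ventral replicate 1 (rho = 0.72) and low in ventral replicate 2 (rho = -0.74), and triangles mark ND-MLRQ, ND-AGGG and UQCR-11 near the end of 3L.

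Members near the end of chromosome arm 3L, beside the centromere, showed large deviations of their own. ND-MLRQ, the accessory gene ND-AGGG and UQCR-11 lie there, and all have short coding sequences. ND-AGGG (FBgn0058002, 3L, 24976254 to 24977118, plus strand) measured 174.4, 250.9 and 237.1 CPM in dorsal replicates 1 to 3 and 161.0, 321.7 and 262.7 CPM in ventral replicates 1 to 3. It was low in dorsal replicate 1 and ventral replicate 1 and high in ventral replicate 2, and UQCR-11 showed the same order at the extremes. The 20 other tested genes from the start of ND-MLRQ to the end of the arm had median deviations of -0.28, 0.15 and 0.05 in dorsal replicates 1 to 3 and -0.31, 0.44 and 0.00 in ventral replicates 1 to 3. Ventral replicate 2 was highest for 11 of these 20, against 23.7% of all genes tested. The 1659 tested genes on the rest of 3L had medians of -0.03 in ventral replicate 1 and 0.00 in ventral replicate 2. The boundary was chosen after the values were seen. On chromosome 4 the 85 genes that are not members had medians of -0.46 in ventral replicate 1 and 0.54 in ventral replicate 2, but the members there, ND-49 and ATPsynbeta, were highest in ventral replicate 1.

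Apart from ATPsynepsilonL, described below, the paralogs had few reads. Together the 21 genes had 232, 345 and 385 reads in dorsal replicates 1 to 3 and 247, 251 and 254 reads in ventral replicates 1 to 3, or 0.00121 ± 0.000283% of reads in dorsal and 0.00106 ± 0.000125% in ventral libraries (SD, n = 3 each). Of the 21, COX5BL had no reads, 11 in all had fewer than 10 reads over the 6 libraries and 10 had at least 10. A count of 0 allowed up to 3 reads, or 0.106 to 0.147 CPM by library, and this floor covers counting error only. COX5BL shares all 647 of its exon bases with the opposite-strand gene Trmt6. Reads from a canonical gene that were placed on its paralog, or the reverse, cannot be told apart in these counts.

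COX4L (FBgn0033020), the paralog of COX4, was the member with the smallest p. It had 97, 74 and 28 reads in dorsal replicates 1 to 3 and 8, 15 and 16 reads in ventral replicates 1 to 3, or 3.78, 2.62 and 1.07 CPM in dorsal and 0.303, 0.736 and 0.659 CPM in ventral libraries. All 3 dorsal values lay above all 3 ventral values. The log2 fold change was 2.13 ± 0.85 (SE), a fold of 4.38, with an adjusted p of 1.0 (edgeR), so it was not called. Over 16 alternative fits its log2 fold change ran from 1.70 to 2.49 and its adjusted p was never under 0.250, the value that DESeq2 gave. Its partner COX4 showed a log2 fold change of -0.01. Per length, COX4L stood at 1.24%, 1.01% and 0.435% of COX4 in dorsal and at 0.102%, 0.339% and 0.221% of COX4 in ventral replicates 1 to 3.

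ATPsynepsilonL, the paralog of the epsilon subunit gene sun, had the most reads of the paralogs, 1003 in all. Its mean level of 13.68 RPKM was close to the 15.61 RPKM of ND-75, the lowest canonical gene with clear expression. It had 58, 188 and 274 reads in dorsal replicates 1 to 3 and 142, 180 and 161 reads in ventral replicates 1 to 3, which is 0.301% to 1.32% of sun per length. The ventral values fell inside the dorsal range, and the log2 fold change was -0.10 ± 0.57 (SE). The other tested paralogs, ND-51L1, COX7AL and COX7CL, had 91, 118 and 80 reads in all, with log2 fold changes of 0.27 ± 0.88, -0.17 ± 1.17 and -1.09 ± 1.00 (SE) and adjusted p-values of 1.0 (edgeR).

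A further 5 paralogs reached 10 reads but not the filter. UQCR-11L had 15, 5 and 9 reads in dorsal replicates 1 to 3 and 1, 1 and 2 reads in ventral replicates 1 to 3, and thus, like COX4L, had groups that did not overlap (dorsal higher without overlap for 4.09% of all genes tested, which do not include UQCR-11L). Some paralogs drew most of their reads from a single library. ND-49L had 15 of its 19 reads in ventral replicate 1, UQCR-14L had 17 of its 28 in ventral replicate 3 and UQCR-6.4L had 8 of its 10 in dorsal replicate 3. ATPsynbetaL had 27 reads in dorsal replicate 3 and 25 in ventral replicate 2, of 64 in all.

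The listed testis genes were low too. Without CycB3, a cyclin of dividing cells at large, 7 of them summed to 134, 124 and 265 reads in dorsal replicates 1 to 3 and 86, 79 and 120 reads in ventral replicates 1 to 3. Scaled to library totals these sums were 5.22, 4.39 and 10.1 CPM in dorsal and 3.26, 3.88 and 4.94 CPM in ventral replicates 1 to 3, so dorsal replicate 2 lay below ventral replicate 3 and the groups overlapped. The gene can, a testis-specific transcription factor component, supplied 65, 74 and 191 of the dorsal and 4, 26 and 85 of the ventral reads, whereas the sperm-protein gene Mst87F had at most 3 reads in any library. The part of stray transcripts of this kind in the COX4L values was not tested.

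**Figure D5:**
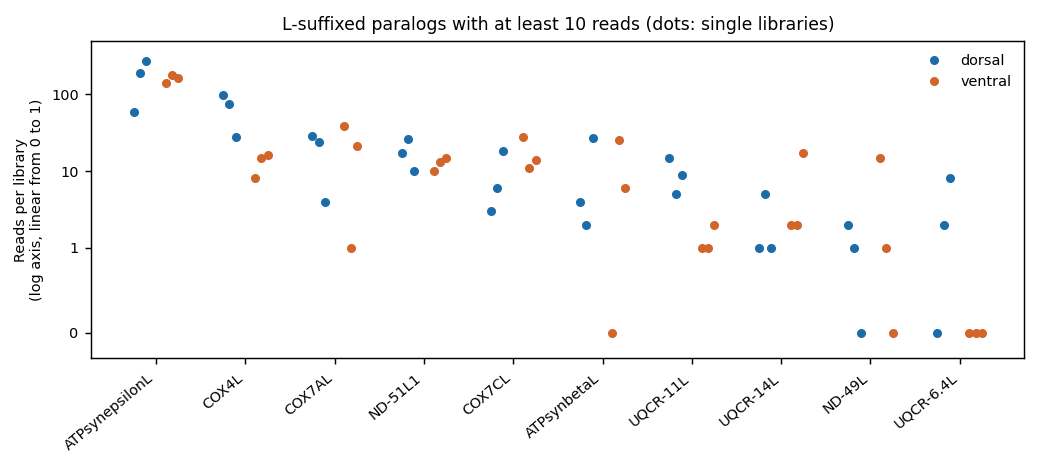
Reads per library (log axis, linear from 0 to 1) of the 10 paralogs with at least 10 reads in all, dorsal dots left of ventral dots. The dorsal dots of COX4L and UQCR-11L all lie above their ventral dots, as they do for 4.09% of all genes tested.

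Subunit and pathway genes outside the naming rule also differed little between dorsal and ventral. The 11 measured subunit genes with other names included the complex II (succinate dehydrogenase) genes SdhA to SdhD, cytochrome c1, the Rieske gene RFeSP, levy and cype of complex IV and the ATP synthase genes blw and sun. Of these, 0 were called by edgeR (0.0919% of all genes tested) and 0 by DESeq2 (0.495% of those it tested), in either direction. An unadjusted edgeR p under 0.05 was reached by 0 of them, against 3.20% of all genes tested. Their log2 fold changes ran from -0.19 to 0.09 with a median of -0.10. The smallest p was that of ox, a small subunit of complex III, with 255.6, 234.3 and 254.3 CPM in dorsal replicates 1 to 3 and 243.1, 284.3 and 321.3 CPM in ventral replicates 1 to 3. The long alpha subunit gene blw measured 1349, 815.8 and 1237 CPM in dorsal and 1677, 797.7 and 1173 CPM in ventral replicates 1 to 3, with its extremes in the same libraries as ND-39.

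Other energy and mitochondrial lists covered 12 glycolytic genes, 16 of the tricarboxylic acid cycle and pyruvate dehydrogenase and 12 assembly factors. Further lists held 12 genes of mitochondrial transcription and biogenesis, 10 of protein import and 70 mitochondrial ribosomal protein genes. Among them 0 genes were called by edgeR (0.0919% of all genes tested) or DESeq2 (0.495% of those it tested), counts close to the background. An unadjusted edgeR p under 0.05 was reached by 0 genes of these lists, against 3.20% of all genes tested. Their median log2 fold changes were 0.00, -0.08, 0.12, -0.08, -0.09 and -0.03 in that order. In the tricarboxylic acid list ventral replicate 1 was highest for 10 of 16 genes and ventral replicate 2 lowest for 8, against 24.5% and 26.3% of all genes tested. The assembly factor Surf1, which helps to build complex IV, measured 29.9, 25.3 and 22.4 CPM in dorsal replicates 1 to 3 and 12.7, 19.4 and 20.3 CPM in ventral replicates 1 to 3. Its groups did not overlap (dorsal higher without overlap for 4.09% of all genes tested), but its log2 fold change of 0.56 ± 0.27 (SE) had an adjusted p of 1.0 (edgeR). Surf1 was picked for the smallest p of its list. In that list 9 of 12 genes had a log2 fold change above 0 and 3 below, where 50.3% of all genes tested were above 0.

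The genes with the smallest p in the other lists were Pgk of glycolysis (log2 fold change 0.20 ± 0.18), Pdha of pyruvate dehydrogenase (-0.28 ± 0.20), mtDNA-helicase of mitochondrial DNA replication (0.37 ± 0.25), Tom7 of protein import (-0.26 ± 0.16) and mRpL37 of the mitochondrial ribosome (-0.24 ± 0.17, SE throughout). The marker lists of neuroepithelium, neuroblast, neuron, glia, muscle and testis held no gene called by edgeR, which called 0.0919% of all genes tested. The calcium channel gene cac of the neuron list came nearest, at 55.7 ± 18.2 CPM dorsally and 17.8 ± 1.79 CPM ventrally (SD, n = 3 each; adjusted p = 0.096, edgeR), and DESeq2 called it. In the neuron list 4 of 7 genes had an unadjusted edgeR p under 0.05, against 3.20% of all genes tested, and 0 genes did in the other marker lists. Of these 4, the synaptic genes nSyb, Syt1 and brp were the ones with higher ventral values. Syt1, a calcium sensor of synaptic vesicles, measured 7.36, 7.43 and 7.34 CPM in dorsal replicates 1 to 3 and 18.6, 26.5 and 9.02 CPM in ventral replicates 1 to 3. The part of neuronal RNA in the small lean of the subunit genes was not tested.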

How the data were processed

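RNA was measured in 3 dorsal and 3 ventral libraries, grouped by the sample titles. The authors deposited raw counts of reads for each gene. Their second deposited table, a normalized signal, is the same counts divided by a scaling factor specific to each library. The submitters' processing notes name the builds dm6 and BDGP6 and the tools Trimmomatic, featureCounts and DESeq2, per the labels. Aligner, tool versions and strand setting: not given in the sources used here. Symbols came from the BDGP6 annotation and matched 17253 of 17559 identifiers (98.3%), and 306 identifiers had none. Coordinates and merged exon lengths are those of BDGP6.

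The main test was the quasi-likelihood F test of edgeR 4.0.16 (R 4.3.3), with a robust fit on group alone after filterByExpr and TMM scaling. P-values were adjusted over 8707 genes by Benjamini-Hochberg and judged at 0.05. The SE divides the absolute log2 difference by the root of F, and 95% intervals use the t distribution of that fit. CPM and RPKM use library totals (21114019 to 27815885 reads) scaled by TMM. Alternatives used DESeq2 1.42.0, limma 3.58.1, other scalings and filters, a replicate block and each library left out. Deviations were computed on log2(CPM + 0.5) in Python 3.11.15. The main edgeR fit alone was run on simulated counts, with set changes larger than the canonical differences seen here. That run covered neither differences as small as these nor the alternative fits. No 2 libraries of the same group agreed within sampling noise.

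Members and lists were chosen with earlier results of these data known. Named genes were, per complex, the 2 highest and the lowest per length and the smallest p, the 3 smallest p in each direction, paralogs with at least 10 reads with their partners, and the smallest p of each list. Other genes in the text were picked with their values known. List genes without a matching symbol (among them Cyt-c-p, Fum1 and 16 assembly factors of 29 listed) were not analysed here.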

Additional observations from a re-analysis of the deposited data

How the results depend on the processing

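No conclusion on a member changed with the processing: the count of members called was 0 in each direction under all 17 alternatives, among them RLE and upper-quartile factors, DESeq2, limma-voom, no filter on low counts, a threshold of 0.10 and each library left out. The median log2 fold change of the canonical genes was -0.029 and ranged from -0.092 (without dorsal replicate 1) to 0.006 (without ventral replicate 3), and limma-voom gave -0.107 with 7 of 57 genes above 0. Leaving out ventral replicates 1 and 2 together, which was added after seeing the data, gave -0.124 with 4 of 57 above 0, while the median of all genes was 0.036. By complex, leaving out single libraries gave -0.063 to 0.059 for complex I, -0.158 to -0.027 for III, -0.136 to -0.036 for IV and -0.133 to -0.019 for V. The dorsal share of reads differed from the ventral one by -0.087 percentage points and by -0.192 to 0.009 with a library left out. With the replicate number as a block, 0 members were called and the canonical median was -0.027. Deviations of same-numbered libraries correlated at 0.0029, -0.0376 and 0.0587, so the numbers were not taken as a pairing. Of 26 named members and partners, 11 changed sign in at least 1 of 16 alternative fits and 15 did not. Without ventral replicate 3 the canonical median was no longer below 0, while the medians of complexes III, IV and V stayed below 0 whichever single library was left out. With 3 libraries per group, the edgeR intervals lay inside a 1.2-fold difference for 0 of the 56 well-expressed canonical genes. A difference of that size was thus not excluded for any of them. The intervals lay inside 1.5-fold for 51 of 56 and inside 2-fold for 56 of 56. The lack of calls sets no such limit, since the paralog COX4L, with few reads, was not called at a fold of 4.38.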
